A study of Mus musculus with 10 samples.

Results

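The comparison described here sets tumours given the Lipo form of MK1775 together with NLG919 against tumours given the Free form of MK1775 together with NLG919. Its members were chosen by treatment label alone and are 4 of the 10 libraries of the series: 2 libraries labelled Lipo-MK1775+NLG and 2 labelled Free-MK1775+NLG919. All were made on day 14 from tumours grown under the skin from 4T1 cells, a carcinoma line of the mouse mammary gland, and all had received MK1775 and NLG919, so that the groups differ by label only in the form of MK1775. The text on the design spells the last group with NLG919, and NLG was read as that drug. The sources used here do not give the make-up of the Lipo and Free forms or the doses, and do not say whether replicates are different mice. Every p-value therefore measures only the spread between these samples, which may be technical. The negative control, for which the design text names PBS, gives 2 further libraries of day 14 tumours as a background. The Lipo-MK1775 and Free-MK1775 libraries, 2 of each and without NLG919, enter the last comparison.

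MK1775 inhibits WEE1, the kinase that puts an inhibitory phosphate on CDK1 and so holds a cell back from mitosis until its DNA is copied and repaired. NLG919 acts on the pathway of IDO1, an enzyme that turns tryptophan into kynurenine, a ligand of the aryl hydrocarbon receptor that dampens T cells. The title of the series concerns sensitivity to ferroptosis, a form of cell death driven by iron and oxidised lipids. In 4T1 tumours, matrix metalloproteinases, stress responses and myeloid cells are familiar parts of the transcriptome, and a bulk tumour library also holds RNA of the host's immune cells, vessels, muscle and skin. In such samples, fewer cells of a type and less RNA per cell cannot be told apart.

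Expression is given as nuclear TPM, the deposited FPKM summed per gene and rescaled so that all transcripts outside the mitochondrial genome add up to 1000000 in each library. Values of a group are listed with replicate 1 before replicate 2. A difference is the mean of log2(nuclear TPM + 1) in Lipo-MK1775+NLG minus the mean in Free-MK1775+NLG919, which understates the change of low genes. It was tested with limma over all 10 libraries, and a gene was called at an adjusted p under 0.05 over 15469 genes.

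The Free-MK1775+NLG919 libraries did not resemble each other as replicates of the other groups did. Mitochondrial transcripts made up 2.98% and 3.49% of FPKM in Lipo-MK1775+NLG tumours, against 2.88% and 47.3% in Free-MK1775+NLG919 tumours. The median gene differed by 0.22 log2 units between the Lipo-MK1775+NLG replicates and by 0.78 between the Free-MK1775+NLG919 replicates. Across genes the median difference was 0.07 against Free-MK1775+NLG919 replicate 1 and 0.75 against replicate 2, and 0.42 against their mean. Genes at 1 nuclear TPM or more numbered 13918 and 13755 in Lipo-MK1775+NLG tumours, against 13624 and 12363 in Free-MK1775+NLG919 tumours. Relative depth was read from the commonest value of FPKM times length among single-exon transcripts outside the mitochondrial genome. It was 1.46 and 1.26 times that of the shallowest library of the series in Lipo-MK1775+NLG tumours, against 1.77 and 1.35 times in Free-MK1775+NLG919 tumours. This depth is that of the whole library, mitochondrial transcripts included. With 47.3% of FPKM mitochondrial in Free-MK1775+NLG919 replicate 2, its depth over other genes is not given by the 1.35. Replicate 2 was thus the low library for most genes, so differences are given against each replicate where they depend on it.

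Lipo-MK1775+NLG tumours had higher levels of secreted matrix metalloproteinases, of AP-1 and immediate early genes, of amino acid stress genes such as Chac1 and Asns, of the transferrin receptor Tfrc, of the chemokines Ccl2 and Cxcl1, and of every mast cell gene measured. They had lower levels of the alarmin Il33 and of globins. Limma called 2 of 15469 genes (0.0129%), and neither belongs to these groups. Of the 653 different genes in 37 lists of pathways and cell types, limma called 0 (the smallest adjusted p was 0.110), while 104 were higher and 12 lower at an unadjusted p under 0.05. The following gene values are therefore descriptions of these 4 libraries, with the test beside the genes of smallest p. Many of these genes were named among those without overlap between the groups. For them, separation by group follows from that choice. Both Lipo-MK1775+NLG libraries lay above both Free-MK1775+NLG919 libraries for 38.7% of all genes tested and below both for 7.93%. These shares are the background for each count of separated genes below. The median of 0.42 is the background for each difference to the mean of the Free-MK1775+NLG919 libraries. For differences to replicate 1 alone the background is 0.07, and for those to replicate 2 alone it is 0.75. Median-of-ratios scaling brings the median of 0.42 to 0.005, and the differences of Cdk1, Ahr, Gpx4, Acsl4, Fth1, Nfe2l2, Cdkn1a and Gzmb then change sign.

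**Figure D1:**
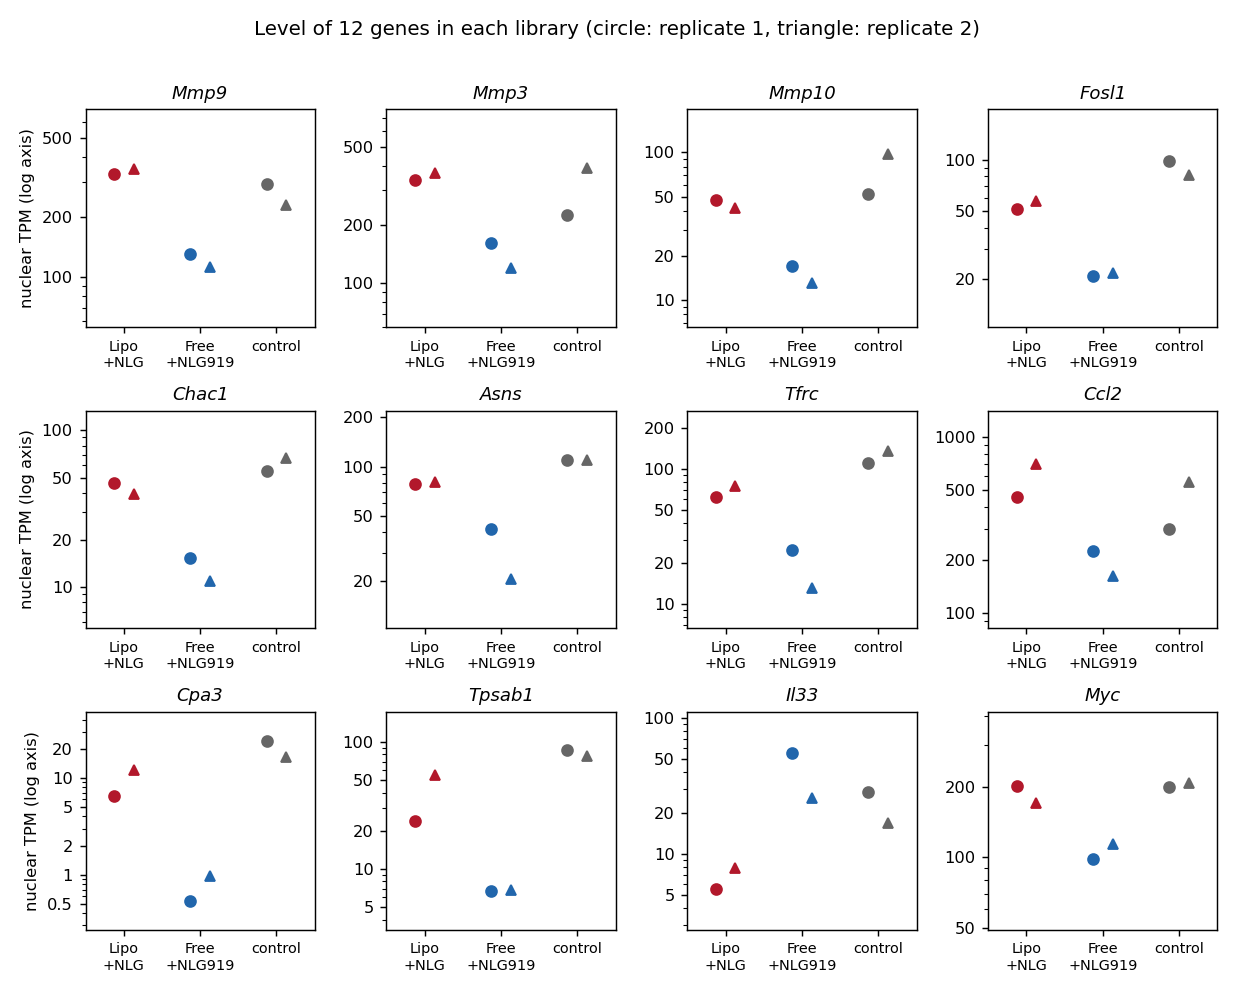
Nuclear TPM (log axis) of 12 genes in the Lipo-MK1775+NLG, Free-MK1775+NLG919 and negative control libraries, with a circle for replicate 1 and a triangle for replicate 2. In 11 of the panels both Lipo-MK1775+NLG libraries lie above both Free-MK1775+NLG919 libraries, such as Mmp9 at 329 and 348 against 130.1 and 112, and in the Il33 panel both lie below.

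The called genes were a pseudogene and a translation factor. Rps18-ps6, a pseudogene of the ribosomal protein gene Rps18 on chromosome 13 (GRCm39, 97896580 to 97897140), had 917 and 1732 nuclear TPM in Lipo-MK1775+NLG tumours, against 0 and 0 in Free-MK1775+NLG919 tumours and 1718 and 1583 in the control. It rose, as 1 of 15469 genes (0.00646%), with a log2 difference of 10.30 (limma SE 0.30, adjusted p = 1.49e-06), a fitted value that depends on the pseudocount because both Free-MK1775+NLG919 libraries are listed at 0. The pseudogene Rps18-ps4 lies at the same locus and had 474 and 0 nuclear TPM in Lipo-MK1775+NLG tumours, against 713 and 1355 in Free-MK1775+NLG919 tumours, so it was high in the libraries where Rps18-ps6 was listed at 0. Near-identical Rps18 copies share reads, and how they were split between these copies is uncertain. Both pseudogenes lie outside the rule for naming genes and were chosen after their values were seen.

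Eif4e encodes the protein that binds the cap of messenger RNAs at the start of translation and lies on chromosome 3 (GRCm39, 138231940 to 138265977). Its named transcripts had 4.23 and 3.20 nuclear TPM in Lipo-MK1775+NLG tumours, against 49.5 and 47.7 in Free-MK1775+NLG919 tumours and 44.4 and 51.4 in the control. It fell by 3.40 on the log2 scale, also as 1 of 15469 genes (0.00646%; limma SE 0.32, adjusted p = 0.0183), with no overlap between the groups. The call rests on which transcripts carry the name. The reference isoform that spans the whole locus was listed at 0 and 0 nuclear TPM in Lipo-MK1775+NLG tumours, against 46.6 and 26.0 in Free-MK1775+NLG919 tumours. An assembled transcript of 8 exons without a gene name at the same locus had 44.0 and 39.2 nuclear TPM in Lipo-MK1775+NLG tumours, against 0 and 0 in Free-MK1775+NLG919 tumours. With unnamed transcripts added to the gene they overlap most, the Eif4e difference was 0.04 (adjusted p = 0.937), and over 26 alternatives its adjusted p ran from 0.00147 to 0.937.

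That summary moved many of the genes with the smallest p. The naming rule gave 12 higher and 12 lower genes that were separated by group and differed by at least 1 log2 unit, and in 9 of the 12 higher and 9 of the 12 lower the difference moved by more than 1.5-fold once unnamed transcripts were added. The vesicle coat gene Sec24a had 3.23 by named transcripts and 0.66 with unnamed transcripts, the centrosome gene Pcnt 2.66 and 0.54, and the reductase gene Cyb5r4 -3.65 and 0.51. Genes whose difference stayed at 1 or more were Calr4, Mmp9, Slfn4 and Usp37 among the higher and Bend5, Tbx2 and H2ac10 among the lower. Calr4, a calreticulin relative, had 5.91 and 5.56 nuclear TPM in Lipo-MK1775+NLG tumours, against 0.259 and 0 in Free-MK1775+NLG919 tumours (log2 difference 2.59, limma SE 0.34, adjusted p = 0.110). Slfn4, a schlafen gene of myeloid cells, had 13.7 and 14.2 nuclear TPM in Lipo-MK1775+NLG tumours, against 0.731 and 0.0876 in Free-MK1775+NLG919 tumours, with a difference of 3.44 by named transcripts and 1.30 with unnamed transcripts.

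Among the lower genes, Bend5 had 0.837 and 0.414 nuclear TPM in Lipo-MK1775+NLG tumours, against 7.17 and 8.96 in Free-MK1775+NLG919 tumours and 0.209 and 0.333 in the control. It was low in both Lipo-MK1775+NLG libraries and in the control and high in both Free-MK1775+NLG919 libraries (log2 difference -2.48, limma SE 0.43, adjusted p = 0.194). Tbx2, a T-box transcription factor gene, had 0.481 and 0.911 nuclear TPM in Lipo-MK1775+NLG tumours, against 9.15 and 5.36 in Free-MK1775+NLG919 tumours, and the difference was -2.26. H2ac10, a histone H2A gene, had 0 and 0.610 nuclear TPM in Lipo-MK1775+NLG tumours, against 3.71 and 6.55 in Free-MK1775+NLG919 tumours, with a difference of -2.23. The levels of these 3 genes were separated by group, as the naming rule requires, and their differences were the same under either transcript summary. Across all genes, 235 were higher (1.52%) and 59 lower (0.381%) with at least 1 log2 unit between the nearest libraries of the groups. Of those, 85 and 35 kept that gap with unnamed transcripts added.

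**Figure D2:**
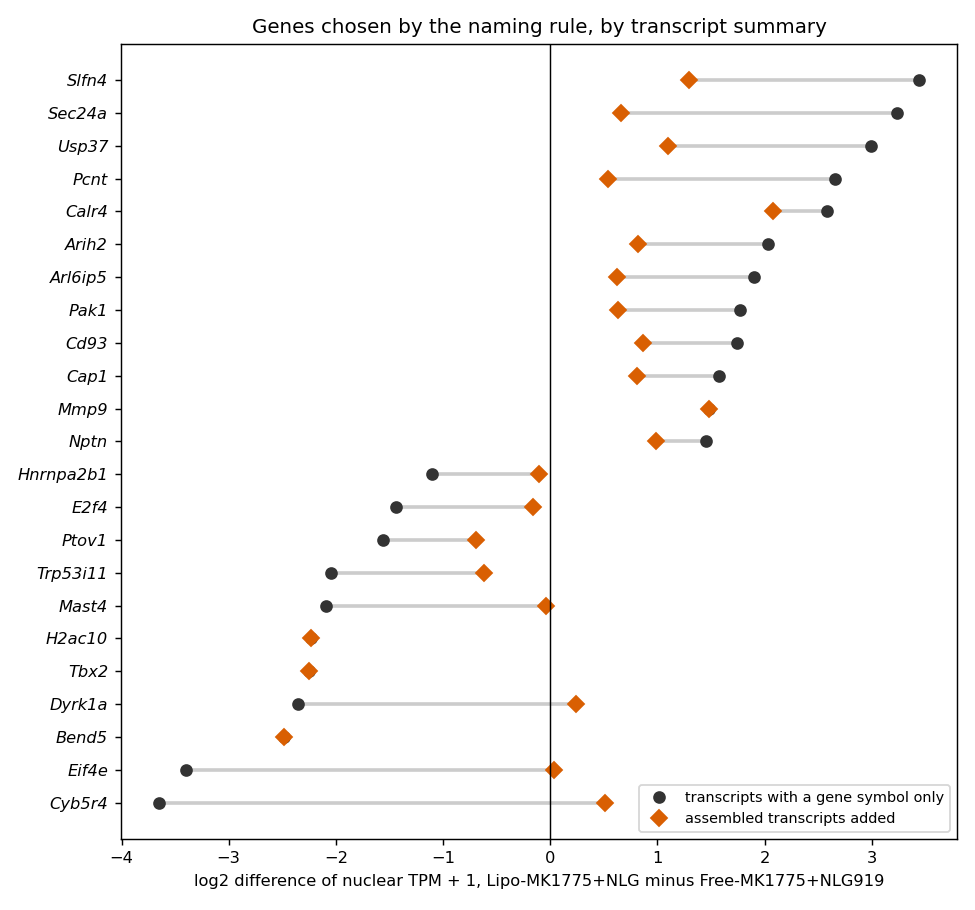
Log2 difference (Lipo-MK1775+NLG minus Free-MK1775+NLG919) of 23 of the 24 genes chosen by the naming rule, as black circles from named transcripts only and orange diamonds with unnamed assembled transcripts added. Lines join the values of a gene, and Eif4e moves to 0.04 while Mmp9 stays at 1.48.

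Genes of matrix breakdown were higher in Lipo-MK1775+NLG tumours. Mmp9, the gelatinase made by neutrophils, macrophages and tumour cells (chromosome 2, GRCm39, 164782700 to 164797770), had 329 and 348 nuclear TPM in Lipo-MK1775+NLG tumours, against 130.1 and 112 in Free-MK1775+NLG919 tumours and 292 and 230.0 in the control. Both Lipo-MK1775+NLG libraries exceeded both Free-MK1775+NLG919 libraries, which lay below the control (log2 difference 1.48, limma SE 0.21, adjusted p = 0.110). It was 1.37 against replicate 1 and 1.59 against replicate 2, so it was nearly as large against the library of low mitochondrial share. Mmp10, a stromelysin (chromosome 9, GRCm39, 7502353 to 7510241), had 47.4 and 42.3 nuclear TPM in Lipo-MK1775+NLG tumours, against 17.0 and 13.1 in Free-MK1775+NLG919 tumours and 52.3 and 97.6 in the control. The groups did not overlap (difference 1.52, limma SE 0.34, adjusted p = 0.326).

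The related stromelysin Mmp3 had 339 and 366 nuclear TPM in Lipo-MK1775+NLG tumours, against 162 and 119 in Free-MK1775+NLG919 tumours (difference 1.34). Mmp13, a collagenase, had 139.7 and 247 nuclear TPM in Lipo-MK1775+NLG tumours, against 92.1 and 35.6 in Free-MK1775+NLG919 tumours (difference 1.68, limma SE 0.45, adjusted p = 0.373). In both genes the Lipo-MK1775+NLG libraries lay above the Free-MK1775+NLG919 libraries, with replicate 2 of the Free group lowest. Adamts1, a protease of proteoglycans, had 18.2 and 20.9 nuclear TPM in Lipo-MK1775+NLG tumours, against 11.3 and 3.11 in Free-MK1775+NLG919 tumours, and Plau, the urokinase that activates plasmin, had 239.6 and 248 nuclear TPM in Lipo-MK1775+NLG tumours, against 195 and 88.9 in Free-MK1775+NLG919 tumours. Mmp12, the macrophage elastase, was closer together at 78.9 and 69.9 nuclear TPM in Lipo-MK1775+NLG tumours, against 61.2 and 53.2 in Free-MK1775+NLG919 tumours. The protease inhibitors Timp2 and Timp1 had differences of 0.79 and 0.23. Of 17 metalloproteinases, plasminogen activators and inhibitors, 12 were higher without overlap (70.6%) and 0 lower, with a median difference of 0.81 against 0.42 over all genes. The median was 0.27 against replicate 1 and 1.45 against replicate 2. Exceptions were the membrane protease Mmp14, with 96.7 and 110.1 nuclear TPM in Lipo-MK1775+NLG tumours, against 146 and 83.4 in Free-MK1775+NLG919 tumours, and the urokinase receptor Plaur, with 13.3 and 74.6 nuclear TPM in Lipo-MK1775+NLG tumours, against 132 and 20.3 in Free-MK1775+NLG919 tumours, whose groups overlapped.

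The promoters of 3 of these proteases are shown because they lie in the same gene cluster and each holds the letters that the AP-1 dimer of Fos and Jun proteins is known to bind. Each sequence gives the 250 bases before the start, 5′ to 3′, from RefSeq on GRCm38.p6, with the motif TGANTCA in capitals. Mmp3 is at chr9:7445572-7445821, Mmp10 at chr9:7502092-7502341 and Mmp13 at chr9:7272264-7272513, all on the plus strand.
Mmp3: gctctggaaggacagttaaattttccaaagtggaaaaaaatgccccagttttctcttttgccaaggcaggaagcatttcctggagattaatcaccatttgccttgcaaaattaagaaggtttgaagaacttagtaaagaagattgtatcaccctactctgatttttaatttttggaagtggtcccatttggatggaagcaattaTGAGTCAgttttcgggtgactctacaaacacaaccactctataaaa
Mmp10: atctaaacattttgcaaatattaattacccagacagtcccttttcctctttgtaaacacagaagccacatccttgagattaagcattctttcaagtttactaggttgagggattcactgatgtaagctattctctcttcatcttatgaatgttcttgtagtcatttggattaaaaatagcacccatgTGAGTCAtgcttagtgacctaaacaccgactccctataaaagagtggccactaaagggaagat
Mmp13: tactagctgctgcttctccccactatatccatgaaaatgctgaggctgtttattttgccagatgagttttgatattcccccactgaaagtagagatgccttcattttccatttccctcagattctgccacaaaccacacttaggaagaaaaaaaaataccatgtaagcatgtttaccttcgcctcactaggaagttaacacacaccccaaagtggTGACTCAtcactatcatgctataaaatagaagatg
The match begins 46, 63 and 35 bases before the start in Mmp3, Mmp10 and Mmp13. With both strands searched, TGANTCA was present in 7.82% of the 27025 promoters in the table and in 5 of the 11 promoters matched from this list (45.5%), the others being Mmp12 and Plaur. Mmp9 has no entry in the table. The motif, the list and the genes printed were chosen after values and matches had been seen, and a match in a window of this length is a description only.

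Genes of the AP-1 dimer, Fosl1 and Jun, stood higher in Lipo-MK1775+NLG tumours. Fosl1, a Fos family member prominent in invasive carcinoma, had 51.4 and 57.1 nuclear TPM in Lipo-MK1775+NLG tumours, against 20.9 and 21.8 in Free-MK1775+NLG919 tumours and 98.9 and 81.8 in the control. Both Free-MK1775+NLG919 libraries were low and close together, and the control was the highest group (log2 difference 1.30, limma SE 0.28, adjusted p = 0.292). Jun, its dimer partner, had 135 and 161 nuclear TPM in Lipo-MK1775+NLG tumours, against 98.9 and 52.4 in Free-MK1775+NLG919 tumours. Myc, the growth regulator, had 202 and 171 nuclear TPM in Lipo-MK1775+NLG tumours, against 98.4 and 114 in Free-MK1775+NLG919 tumours and 200.2 and 208 in the control (difference 0.80, limma SE 0.21, adjusted p = 0.373), so the Lipo-MK1775+NLG libraries lay near the control and the Free-MK1775+NLG919 libraries below it. Egr1, a zinc finger gene induced within minutes of growth signals, had 28.5 and 38.6 nuclear TPM in Lipo-MK1775+NLG tumours, against 22.2 and 8.88 in Free-MK1775+NLG919 tumours. Klf6 and Klf4, Krüppel-like factor genes, had differences of 1.20 and 1.14. Of 20 immediate early genes, 15 were higher without overlap (75%) and 0 lower. Their median difference was 0.81, or 0.42 against replicate 1 and 1.03 against replicate 2. None of the 15 promoters matched for this list held TGANTCA in that window, and Fosl1 has no entry.

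Genes of the ATF4 response, by which cells answer a shortage of amino acids or misfolded proteins, were also higher. Chac1, an enzyme that breaks down glutathione (chromosome 2, GRCm39, 119181710 to 119184862), had 46.1 and 39.0 nuclear TPM in Lipo-MK1775+NLG tumours, against 15.3 and 10.9 in Free-MK1775+NLG919 tumours and 54.9 and 66.7 in the control. Its Lipo-MK1775+NLG libraries lay below the control and both Free-MK1775+NLG919 libraries lay lower still (log2 difference 1.64, limma SE 0.29, adjusted p = 0.225). Asns, asparagine synthetase, had 78.0 and 81.0 nuclear TPM in Lipo-MK1775+NLG tumours, against 41.7 and 20.7 in Free-MK1775+NLG919 tumours and 109 and 109.6 in the control (difference 1.40, limma SE 0.37, adjusted p = 0.373). Trib3, a pseudokinase that restrains ATF4, had 57.3 and 46.2 nuclear TPM in Lipo-MK1775+NLG tumours, against 33.9 and 9.26 in Free-MK1775+NLG919 tumours. Groups did not overlap for these 3 genes, and replicate 2 was the lowest library in each.

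The serine synthesis enzymes followed the same order, with Phgdh at 179 and 177 nuclear TPM in Lipo-MK1775+NLG tumours, against 119 and 46.9 in Free-MK1775+NLG919 tumours, and Psat1 at 83.3 and 98.3 nuclear TPM in Lipo-MK1775+NLG tumours, against 60.0 and 38.1 in Free-MK1775+NLG919 tumours. Cth, which makes cysteine, had a difference of 1.30, and Herpud1, of the degradation of misfolded proteins, 0.86. Atf4 itself had 284 and 313 nuclear TPM in Lipo-MK1775+NLG tumours, against 256 and 318 in Free-MK1775+NLG919 tumours (difference 0.06), and Ddit3, the pro-apoptotic factor CHOP, had 52.2 and 43.2 nuclear TPM in Lipo-MK1775+NLG tumours, against 37.6 and 59.9 in Free-MK1775+NLG919 tumours. For both of these transcription factors the groups overlapped. Atf5 was lower at 182 and 168 nuclear TPM in Lipo-MK1775+NLG tumours, against 221 and 243 in Free-MK1775+NLG919 tumours. The cystine transporter Slc7a11 had 0.652 and 0.132 nuclear TPM in Lipo-MK1775+NLG tumours, against 1.69 and 1.93 in Free-MK1775+NLG919 tumours, with a difference of -1.04 that turned to 0.46 with unnamed transcripts added. Of 23 members, 14 were higher without overlap (60.9%) and 2 lower, and the median was 0.74, or 0.22 against replicate 1 and 1.14 against replicate 2.

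Promoters of Chac1 and Asns are shown for the composite element that ATF4 and C/EBP proteins are known to bind, searched as TGATGNAA on both strands. They are from RefSeq on GRCm38.p6, 250 bases before the start, with the match in capitals, as its reverse complement in Chac1. Chac1 is at chr2:119350992-119351241 on the plus strand and Asns at chr6:7693210-7693459 on the minus strand.
Chac1: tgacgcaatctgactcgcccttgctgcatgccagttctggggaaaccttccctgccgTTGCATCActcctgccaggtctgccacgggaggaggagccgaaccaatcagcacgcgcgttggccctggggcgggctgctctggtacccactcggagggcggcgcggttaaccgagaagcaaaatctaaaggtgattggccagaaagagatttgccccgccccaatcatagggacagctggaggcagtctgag
Asns: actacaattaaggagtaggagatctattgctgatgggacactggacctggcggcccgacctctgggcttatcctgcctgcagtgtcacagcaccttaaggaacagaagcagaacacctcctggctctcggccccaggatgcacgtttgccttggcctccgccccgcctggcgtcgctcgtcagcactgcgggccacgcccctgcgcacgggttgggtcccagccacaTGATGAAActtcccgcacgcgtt
The match begins 193 bases before the start in Chac1 and 23 in Asns. TGATGNAA was present in 3.91% of 27025 promoters and in 5 of the 22 matched from this list (22.7%), namely Asns, Atf3, Chac1, Herpud1 and Slc7a11. The narrower TGATGCAA, which lies within that pattern, was present in 0.918% of all promoters and in 4 of the 22. These motifs, too, were chosen after values and matches had been seen.

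Among ferroptosis genes, the iron receptor Tfrc and the redox genes Txnrd1, Nqo1 and Gclm were higher in Lipo-MK1775+NLG tumours, while the groups overlapped for Gpx4. Tfrc, the receptor that brings iron into the cell (chromosome 16, GRCm39, 32427738 to 32451612), had 62.4 and 74.3 nuclear TPM in Lipo-MK1775+NLG tumours, against 25.1 and 13.2 in Free-MK1775+NLG919 tumours and 110.4 and 135 in the control. The Lipo-MK1775+NLG libraries lay between the control and the Free-MK1775+NLG919 libraries, with no overlap (log2 difference 1.84, limma SE 0.36, adjusted p = 0.263), and the difference was 1.40 against replicate 1 and 2.28 against replicate 2. Ncoa4, which delivers ferritin to lysosomes to free its iron, had 44.7 and 35.8 nuclear TPM in Lipo-MK1775+NLG tumours, against 23.6 and 10.1 in Free-MK1775+NLG919 tumours. Gls2, a mitochondrial glutaminase, had 7.41 and 7.26 nuclear TPM in Lipo-MK1775+NLG tumours, against 3.00 and 1.53 in Free-MK1775+NLG919 tumours, and Ptgs2, a cyclooxygenase gene used as a marker of ferroptosis, had 107 and 115 nuclear TPM in Lipo-MK1775+NLG tumours, against 79.9 and 34.0 in Free-MK1775+NLG919 tumours. In each of these the Free-MK1775+NLG919 libraries were the low ones. Acsl4, which loads membranes with oxidisable lipids, had 54.9 and 65.9 nuclear TPM in Lipo-MK1775+NLG tumours, against 102 and 22.4 in Free-MK1775+NLG919 tumours, and the Free-MK1775+NLG919 libraries lay on either side. Of 23 drivers of ferroptosis, 11 were higher without overlap (47.8%) and 0 lower, with a median of 0.52 against 0.42 over all genes.

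On the side of defence, Txnrd1, thioredoxin reductase, had 127 and 135 nuclear TPM in Lipo-MK1775+NLG tumours, against 79.7 and 43.2 in Free-MK1775+NLG919 tumours, a difference of 1.14. The quinone reductase Nqo1 had 15.1 and 14.6 nuclear TPM in Lipo-MK1775+NLG tumours, against 8.24 and 5.51 in Free-MK1775+NLG919 tumours. Gclm, the regulatory subunit of glutathione synthesis, had 30.6 and 25.4 nuclear TPM in Lipo-MK1775+NLG tumours, against 17.6 and 10.3 in Free-MK1775+NLG919 tumours. These 3 genes were separated by group, and replicate 2 was lowest. Gpx4, the enzyme that removes lipid peroxides, had 708 and 698 nuclear TPM in Lipo-MK1775+NLG tumours, against 603 and 769.7 in Free-MK1775+NLG919 tumours (difference 0.04), and the groups overlapped. Hmox1, the haem oxygenase, had 399 and 359 nuclear TPM in Lipo-MK1775+NLG tumours, against 346 and 519.9 in Free-MK1775+NLG919 tumours, also with overlap. Aifm2, which encodes the ubiquinone reductase FSP1, had a difference of 0.59, and the ferritin subunits Fth1 and Ftl1 had 0.09 and -0.02. Of 24 defence genes, 11 were higher without overlap (45.8%) and 1 lower, with a median of 0.58 against 0.42 over all genes. Among 18 genes of iron handling 7 were higher without overlap (38.9%, near the share of all genes), among them the mitochondrial iron importer Slc25a37 with 73.4 and 50.8 nuclear TPM in Lipo-MK1775+NLG tumours, against 43.6 and 19.3 in Free-MK1775+NLG919 tumours.

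Cell cycle genes were higher in Lipo-MK1775+NLG tumours, by more against replicate 2 of the Free group than against replicate 1. Wee1, the target of MK1775, had 24.2 and 20.6 nuclear TPM in Lipo-MK1775+NLG tumours, against 16.8 and 8.08 in Free-MK1775+NLG919 tumours and 29.3 and 31.8 in the control (log2 difference 0.88, limma SE 0.36, adjusted p = 0.373). Both Lipo-MK1775+NLG libraries lay above both Free-MK1775+NLG919 libraries and below the control. The checkpoint kinase Chek1 had 33.6 and 24.4 nuclear TPM in Lipo-MK1775+NLG tumours, against 20.5 and 10.9 in Free-MK1775+NLG919 tumours. Ccnb1, the cyclin that drives entry into mitosis, had 55.7 and 57.0 nuclear TPM in Lipo-MK1775+NLG tumours, against 44.0 and 14.1 in Free-MK1775+NLG919 tumours, and its partner kinase Cdk1 had 47.5 and 46.3 nuclear TPM in Lipo-MK1775+NLG tumours, against 45.4 and 25.5 in Free-MK1775+NLG919 tumours. For Cdk1 and Ccnb1, replicate 1 stood close to the Lipo-MK1775+NLG libraries and replicate 2 stood far below. All 15 genes of the WEE1 and CDK1 switch were higher on average (Cdk1 not so under median-of-ratios scaling), 8 of them without overlap (53.3%), and the median was 0.08 against replicate 1 and 1.32 against replicate 2. Over all genes these medians were 0.07 and 0.75. Against replicate 1 this list was thus near the median of all genes, and it stood above that median only against replicate 2.

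DNA replication genes were also higher in Lipo-MK1775+NLG tumours. Cdt1, which loads the replicative helicase, had 59.6 and 60.2 nuclear TPM in Lipo-MK1775+NLG tumours, against 39.7 and 19.8 in Free-MK1775+NLG919 tumours. The ribonucleotide reductase subunit Rrm2 had 116 and 117 nuclear TPM in Lipo-MK1775+NLG tumours, against 80.8 and 20.1 in Free-MK1775+NLG919 tumours, and Mcm2, of the helicase itself, had 62.6 and 61.3 nuclear TPM in Lipo-MK1775+NLG tumours, against 47.7 and 20.1 in Free-MK1775+NLG919 tumours. Each was nearly equal in the Lipo-MK1775+NLG replicates, lower in Free-MK1775+NLG919 replicate 1 and lowest in replicate 2. Of 22 replication genes, 19 were higher without overlap (86.4%) and 0 lower. Their median of 0.92 came to 0.28 against replicate 1 and 1.54 against replicate 2. Of 24 mitotic genes, 17 were higher without overlap (70.8%), with medians of 0.21 and 1.63. With unnamed transcripts added, 18 of 22 replication genes, 22 of 24 mitotic genes and 11 of 15 genes of the WEE1 and CDK1 switch were higher without overlap. Of all 15469 genes tested, 6443 were so under that summary, which is the background for these counts. The kinesin Kif20a had a difference of 1.29. The proliferation marker Mki67 had 58.2 and 43.0 nuclear TPM in Lipo-MK1775+NLG tumours, against 23.4 and 0.262 in Free-MK1775+NLG919 tumours, but its difference of 3.20 became 0.81 with unnamed transcripts added.

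Repair and p53 genes showed the same dependence. Brca1, Blm and Fanca, genes of homologous recombination and of the repair of DNA crosslinks, had differences of 1.35, 1.15 and 1.07. Of 19 repair genes, 12 were higher without overlap (63.2%) and 1 lower, with medians of 0.28 against replicate 1 and 1.42 against replicate 2. Mdm2, the ligase that degrades p53, had 47.3 and 32.8 nuclear TPM in Lipo-MK1775+NLG tumours, against 11.8 and 3.29 in Free-MK1775+NLG919 tumours, with a difference of 2.45 by named transcripts and 0.79 with unnamed transcripts added. The inhibitor of cyclin kinases Cdkn1a had 67.6 and 81.8 nuclear TPM in Lipo-MK1775+NLG tumours, against 67.1 and 43.6 in Free-MK1775+NLG919 tumours. Of 17 p53 targets, 9 were higher without overlap (52.9%), with medians of 0.11 and 1.07. When replicate 1 of the Free group was left out, so that replicate 2 stood alone and was assumed to vary like the other groups, limma called 5565 genes higher (36%) and 465 lower (3.01%). When replicate 2 was left out instead, it called 3 higher (0.0194%) and 0 lower (0%), with 901 genes at an unadjusted p under 0.05 in either direction.

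The 3 were Rps18-ps6, Ddx1 and Ubtd2, chosen here after their values were seen. Ddx1, an RNA helicase gene, had 61.9 and 59.4 nuclear TPM in Lipo-MK1775+NLG tumours, against 7.45 and 31.7 in Free-MK1775+NLG919 tumours, and Ubtd2, a ubiquitin domain gene, had 31.6 and 37.5 nuclear TPM in Lipo-MK1775+NLG tumours, against 2.14 and 18.3 in Free-MK1775+NLG919 tumours. In both, replicate 1 was the lowest library, and with both replicates and unnamed transcripts added their differences were 0.43 and 0.58.

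**Figure D3:**
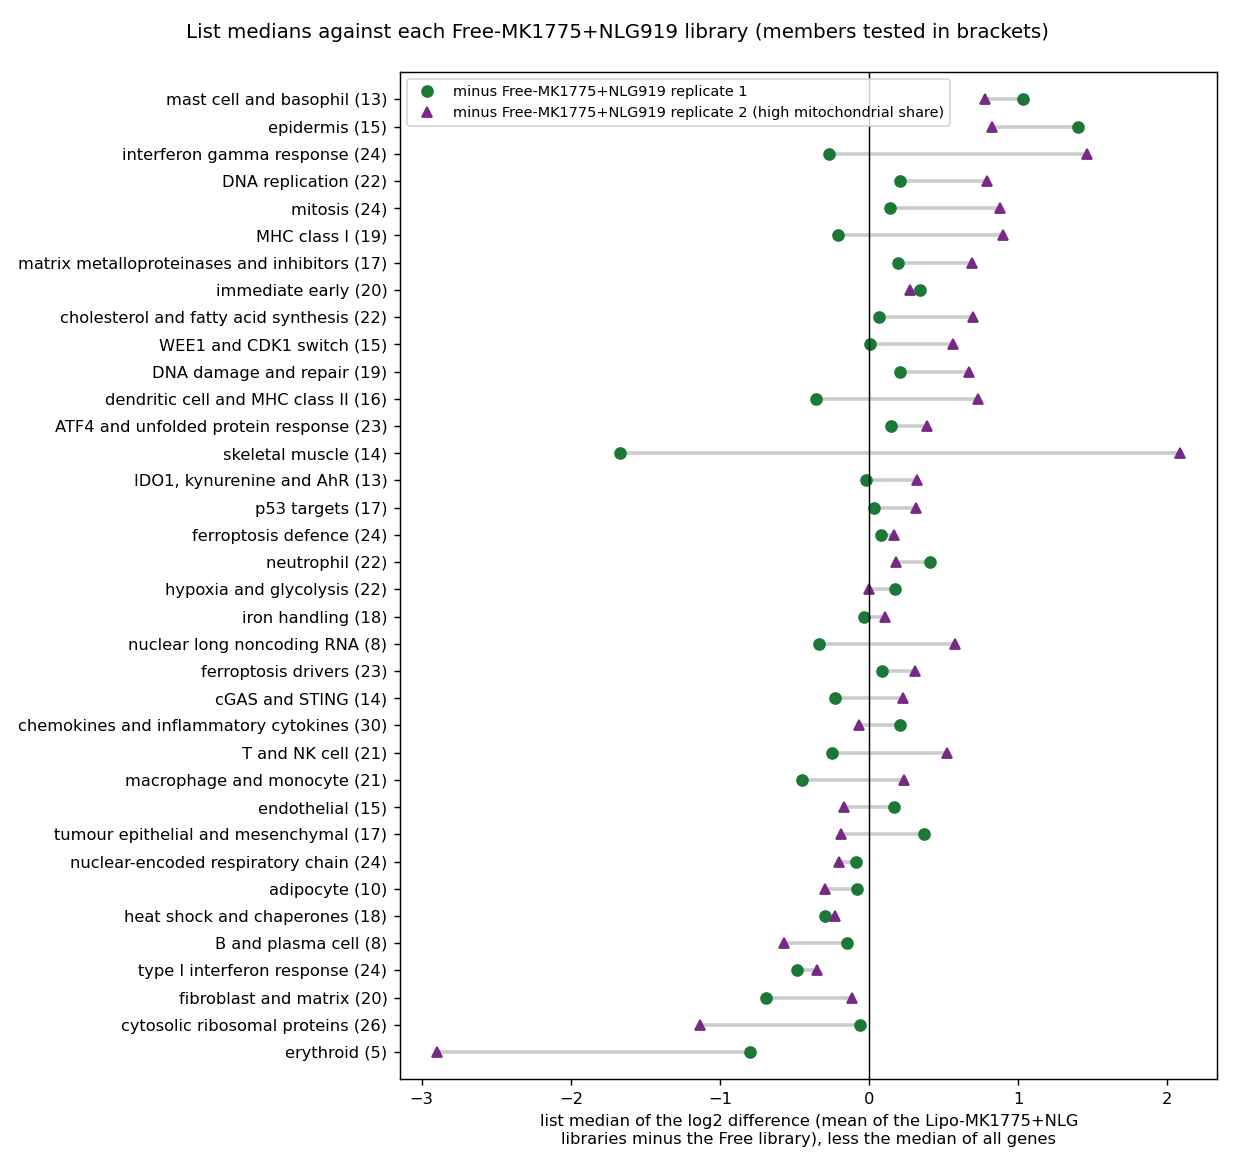
Median log2 difference of 36 gene lists (mean of the Lipo-MK1775+NLG libraries minus a Free-MK1775+NLG919 library), less the median of all genes against the same library, with green circles for replicate 1 and purple triangles for replicate 2. Mast cell and basophil genes lie right of 0 against either library, erythroid genes lie left against either, and skeletal muscle genes lie left against replicate 1 and right against replicate 2.

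Of the genes on which NLG919 acts, Ido1 itself was low. It had 3.90 and 2.94 nuclear TPM in Lipo-MK1775+NLG tumours, against 3.73 and 0 in Free-MK1775+NLG919 tumours and 9.13 and 8.04 in the control, so the groups overlapped and all 4 libraries lay below the control. Ido2, a related enzyme, had 3.03 and 1.64 nuclear TPM in Lipo-MK1775+NLG tumours, against 0.623 and 0 in Free-MK1775+NLG919 tumours. Tdo2, the third enzyme of this step, was under the minimum for testing in all 4 libraries. Tiparp, a target of the aryl hydrocarbon receptor, had 45.1 and 45.1 nuclear TPM in Lipo-MK1775+NLG tumours, against 23.2 and 11.9 in Free-MK1775+NLG919 tumours (log2 difference 1.38, limma SE 0.35, adjusted p = 0.373). The receptor's target Cyp1b1 had 96.7 and 89.2 nuclear TPM in Lipo-MK1775+NLG tumours, against 64.3 and 34.3 in Free-MK1775+NLG919 tumours and 47.4 and 52.5 in the control, so that both Lipo-MK1775+NLG libraries exceeded the other 4. The receptor gene Ahr had 26.5 and 34.2 nuclear TPM in Lipo-MK1775+NLG tumours, against 38.8 and 17.0 in Free-MK1775+NLG919 tumours, and the Free-MK1775+NLG919 libraries lay on either side. Of 13 genes of this pathway, 5 were higher without overlap (38.5%, near the share of all genes) and 0 lower.

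The chemokines Ccl2 and Cxcl1 were higher in Lipo-MK1775+NLG tumours, while the share of their list that was higher without overlap was near that of all genes. Ccl2, the main attractant of monocytes, had 455 and 708 nuclear TPM in Lipo-MK1775+NLG tumours, against 225 and 164 in Free-MK1775+NLG919 tumours and 302 and 556 in the control (log2 difference 1.56, limma SE 0.33, adjusted p = 0.292). Cxcl1, a ligand of the neutrophil receptor CXCR2, had 235 and 330.0 nuclear TPM in Lipo-MK1775+NLG tumours, against 121 and 81.8 in Free-MK1775+NLG919 tumours and 148 and 194 in the control (difference 1.47, limma SE 0.35, adjusted p = 0.373). Both genes were named among the list members without overlap, so their separation by group follows from that choice. Ccl8 had 319 and 561 nuclear TPM in Lipo-MK1775+NLG tumours, against 249 and 63.2 in Free-MK1775+NLG919 tumours, Cxcl3 had 24.2 and 16.1 nuclear TPM in Lipo-MK1775+NLG tumours, against 5.61 and 6.64 in Free-MK1775+NLG919 tumours, and the cytokine Tnf had a difference of 1.15. Il33, an alarmin released by damaged epithelial and stromal cells, ran the other way with 5.51 and 7.82 nuclear TPM in Lipo-MK1775+NLG tumours, against 55.1 and 25.6 in Free-MK1775+NLG919 tumours and 28.2 and 16.8 in the control. Both Lipo-MK1775+NLG libraries were the lowest of the 6 (difference -2.35, limma SE 0.58, adjusted p = 0.373). Of 30 chemokines and cytokines, 11 were higher without overlap (36.7%) and 4 lower (13.3%), against 38.7% and 7.93% of all genes, with a median of 0.51 against 0.42.

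Neutrophil genes were mixed. The receptor gene Cxcr2 had 19.2 and 17.7 nuclear TPM in Lipo-MK1775+NLG tumours, against 7.99 and 4.44 in Free-MK1775+NLG919 tumours, the neutrophil collagenase Mmp8 had 18.9 and 10.5 nuclear TPM in Lipo-MK1775+NLG tumours, against 4.74 and 3.92 in Free-MK1775+NLG919 tumours, and the decoy receptor gene Il1r2 had 47.2 and 49.4 nuclear TPM in Lipo-MK1775+NLG tumours, against 18.3 and 16.7 in Free-MK1775+NLG919 tumours. These were separated by group. S100a8, an abundant neutrophil protein, had 922 and 652 nuclear TPM in Lipo-MK1775+NLG tumours, against 338 and 793 in Free-MK1775+NLG919 tumours, and the groups overlapped. Of 22 neutrophil markers, 10 were higher without overlap (45.5%) and 1 lower, and their summed level in nuclear TPM was 3557 and 2993 in Lipo-MK1775+NLG tumours, against 1995 and 2552 in Free-MK1775+NLG919 tumours.

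Mast cell and basophil genes were higher in all 13 members tested, and all 13 were separated by group (100%). The summed level of the list was 124 and 223 in Lipo-MK1775+NLG tumours, against 50.0 and 41.1 in Free-MK1775+NLG919 tumours, with 297 and 218 in the control. Both Free-MK1775+NLG919 libraries were the lowest of the 6, and Lipo-MK1775+NLG replicate 2 lay in the range of the control. Without NLG919 the sum differed between replicates, at 32.3 and 190 in Lipo-MK1775 tumours and 65.4 and 143 in Free-MK1775 tumours. Cpa3, the carboxypeptidase of mast cell granules, had 6.55 and 12.1 nuclear TPM in Lipo-MK1775+NLG tumours, against 0.541 and 0.979 in Free-MK1775+NLG919 tumours and 24.0 and 16.5 in the control (log2 difference 2.51, limma SE 0.66, adjusted p = 0.373). The tryptase Tpsab1 had 24.0 and 55.1 nuclear TPM in Lipo-MK1775+NLG tumours, against 6.67 and 6.81 in Free-MK1775+NLG919 tumours (difference 2.28, limma SE 0.78), and Tpsb2 had 15.3 and 30.8 nuclear TPM in Lipo-MK1775+NLG tumours, against 3.03 and 7.69 in Free-MK1775+NLG919 tumours. The chymases Mcpt4 and Cma1 had 9.17 and 25.1 nuclear TPM in Lipo-MK1775+NLG tumours, against 1.42 and 2.73 in Free-MK1775+NLG919 tumours, and 7.78 and 20.9 nuclear TPM in Lipo-MK1775+NLG tumours, against 2.44 and 2.92 in Free-MK1775+NLG919 tumours. Replicate 2 of Lipo-MK1775+NLG was the higher of its group for each of these proteases.

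The stem cell factor receptor Kit had 5.48 and 6.77 nuclear TPM in Lipo-MK1775+NLG tumours, against 4.51 and 1.25 in Free-MK1775+NLG919 tumours, and Hdc, which makes histamine, had 30.9 and 42.0 nuclear TPM in Lipo-MK1775+NLG tumours, against 18.8 and 16.4 in Free-MK1775+NLG919 tumours. Fcer1a and Ms4a2, subunits of the high-affinity IgE receptor, were listed at 0 in both Free-MK1775+NLG919 libraries, against 0.896 and 3.39 nuclear TPM for Fcer1a and 0.581 and 1.28 for Ms4a2 in Lipo-MK1775+NLG tumours. The list median was 1.53, or 1.11 against replicate 1 and 1.53 against replicate 2. Less the median of all genes it was 1.11, and 0.77 with unnamed transcripts added. Protease genes of these families are close copies, and how reads were split between them is uncertain.

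Antigen presentation and muscle genes set the Free-MK1775+NLG919 replicates apart from each other, with the Lipo-MK1775+NLG libraries between them. Cd74, the chaperone of MHC class II, had 1459.9 and 1863 nuclear TPM in Lipo-MK1775+NLG tumours, against 3879 and 249.8 in Free-MK1775+NLG919 tumours, and the class II chain H2-Eb1 had 252 and 309 nuclear TPM in Lipo-MK1775+NLG tumours, against 757 and 24.4 in Free-MK1775+NLG919 tumours. The summed level of 16 class II and dendritic cell genes was 2639 and 3148 in Lipo-MK1775+NLG tumours, against 6595 and 473 in Free-MK1775+NLG919 tumours. Replicate 1 was the highest of the 4 libraries and replicate 2 the lowest, and for 8 of the 16 genes the Lipo-MK1775+NLG libraries lay between them (50%), against 17.2% of all genes. Interferon gamma genes did so for 15 of 24 (62.5%), with medians of -0.19 against replicate 1 and 2.22 against replicate 2. The guanylate binding protein gene Gbp2 had 226 and 213 nuclear TPM in Lipo-MK1775+NLG tumours, against 204 and 32.1 in Free-MK1775+NLG919 tumours, where replicate 1 stood just below the Lipo-MK1775+NLG libraries. The checkpoint ligand gene Cd274 had 31.2 and 30.0 nuclear TPM in Lipo-MK1775+NLG tumours, against 31.9 and 0.145 in Free-MK1775+NLG919 tumours, and its difference of 2.37 became 1.15 with unnamed transcripts added.

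Macrophage genes lay between the replicates for 11 of 21 members (52.4%), with Nos2, the inducible nitric oxide synthase, an exception at 34.2 and 30.9 nuclear TPM in Lipo-MK1775+NLG tumours, against 15.8 and 4.88 in Free-MK1775+NLG919 tumours, and the mannose receptor Mrc1 another at 167 and 147 nuclear TPM in Lipo-MK1775+NLG tumours, against 99.3 and 73.8 in Free-MK1775+NLG919 tumours. Of the 21 macrophage genes, 5 were higher without overlap (23.8%) and 4 lower (19.0%), against 38.7% and 7.93% of all genes. T and NK cell genes lay between the Free-MK1775+NLG919 replicates for 10 of 21 (47.6%). Skeletal muscle genes did so for 13 of 14 (92.9%), and their summed level was 278 and 231 in Lipo-MK1775+NLG tumours, against 750.3 and 55.2 in Free-MK1775+NLG919 tumours. The muscle actin gene Acta1 had 103 and 77.2 nuclear TPM in Lipo-MK1775+NLG tumours, against 258 and 0 in Free-MK1775+NLG919 tumours. The fast troponin Tnni2 was the exception with 16.1 and 7.53 nuclear TPM in Lipo-MK1775+NLG tumours, against 47.0 and 48.1 in Free-MK1775+NLG919 tumours. For these groups a mean over the Free-MK1775+NLG919 libraries describes neither of them.

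**Figure D4:**
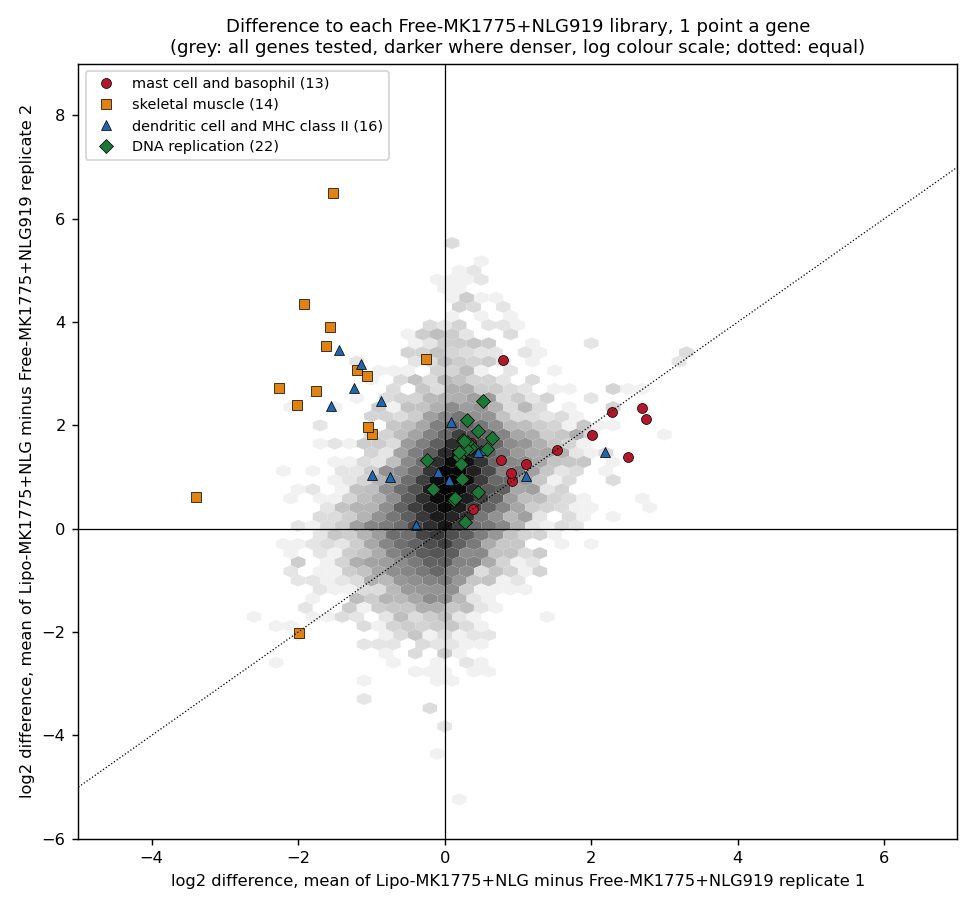
Log2 difference of each gene from Free-MK1775+NLG919 replicate 1 (x axis) and from replicate 2 (y axis), with the mean of the Lipo-MK1775+NLG libraries on top of both, all tested genes in grey and 4 lists marked. Mast cell genes lie in the upper right, DNA replication genes lie mostly near 0 on the x axis and above 0 on the y axis, and MHC class II and skeletal muscle genes lie mostly in the upper left, and 5 genes, Rps18-ps4, Rps18-ps6, mt-Atp8, mt-Nd2 and mt-Nd4, lie outside the axes.

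Epidermal genes marked single libraries. Krt14, a keratin of basal skin cells, had 1.70 and 568 nuclear TPM in Lipo-MK1775+NLG tumours, against 0 and 0 in Free-MK1775+NLG919 tumours and 449 and 0 in the control. The summed level of 15 epidermal genes was 16.0 and 1149 in Lipo-MK1775+NLG tumours, against 11.2 and 8.84 in Free-MK1775+NLG919 tumours. It was 1707 and 10.5 in the control. Of these libraries, 1 of Lipo-MK1775+NLG and 1 of the control held most of it. Among the libraries without NLG919, Free-MK1775 replicate 2 had 455, against 10.7 in Free-MK1775 replicate 1. Whether other differences of that Lipo-MK1775+NLG library come with skin was not tested. Tumour keratins were less uneven, with Krt8 at 759 and 647 nuclear TPM in Lipo-MK1775+NLG tumours, against 515 and 292 in Free-MK1775+NLG919 tumours. Cdh1, the E-cadherin of epithelial junctions, had 8.87 and 7.91 nuclear TPM in Lipo-MK1775+NLG tumours, against 1.30 and 0.591 in Free-MK1775+NLG919 tumours and 13.3 and 7.12 in the control (log2 difference 2.29, limma SE 0.45, adjusted p = 0.268). Its levels were separated by group, and the low libraries were both of Free-MK1775+NLG919. Of 17 epithelial and mesenchymal tumour genes 5 were higher without overlap (29.4%) and 0 lower, and the mesenchymal filament gene Vim overlapped at 1504 and 1246 nuclear TPM in Lipo-MK1775+NLG tumours, against 919 and 1845 in Free-MK1775+NLG919 tumours. Krt8 and Vim were thus high in all 4 libraries.

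Endothelial genes were near the median of all genes as a group, and fibroblast genes below it. Pecam1, the endothelial adhesion gene, had 43.1 and 32.1 nuclear TPM in Lipo-MK1775+NLG tumours, against 17.6 and 11.8 in Free-MK1775+NLG919 tumours, and 8 of 15 endothelial genes were higher without overlap (53.3%), with a median of 0.46. Of 20 fibroblast and matrix genes 2 were higher (10%) and 5 lower (25%) without overlap, with a median of -0.03, below the 0.42 of all genes. The proteoglycan Dcn was higher at 76.0 and 93.5 nuclear TPM in Lipo-MK1775+NLG tumours, against 40.0 and 39.1 in Free-MK1775+NLG919 tumours. Sterol synthesis genes were higher for 13 of 22 without overlap (59.1%), but by a median of 0.14 against replicate 1 and 1.45 against replicate 2. Of 22 genes of hypoxia and glycolysis, 14 were higher without overlap (63.6%), with a median of 0.57.

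Globins were on the low side in Lipo-MK1775+NLG tumours, and ribosomal protein genes as a group were so only against replicate 2 of the Free group. The beta globin Hbb-bs had 78.9 and 131 nuclear TPM in Lipo-MK1775+NLG tumours, against 169 and 524 in Free-MK1775+NLG919 tumours, and Hba-a1 and Hba-a2 had differences of -1.51 and -2.13. The summed level of the 5 erythroid genes tested was 136 and 245 in Lipo-MK1775+NLG tumours, against 339 and 896 in Free-MK1775+NLG919 tumours, and 4 of them were lower without overlap (80%) with a median of -1.51. These near-identical globin copies share reads, and 5 further erythroid genes were not tested. Rps2, of the small ribosomal subunit, had 420.5 and 539.9 nuclear TPM in Lipo-MK1775+NLG tumours, against 614 and 1027 in Free-MK1775+NLG919 tumours. Of 26 ribosomal protein genes 6 were lower (23.1%) and 3 higher (11.5%) without overlap, and the median was 0.01 against replicate 1 and -0.38 against replicate 2. The 18S ribosomal RNA gene Rn18s, which is outside the naming rule and was added once its values were known, had 2143 and 4151 nuclear TPM in Lipo-MK1775+NLG tumours, against 4727 and 10374 in Free-MK1775+NLG919 tumours. The 15 mitochondrially encoded genes had a median of 0.03 against replicate 1 and -4.69 against replicate 2.

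The last comparison asks whether the difference between the forms was the same with and without NLG919. It takes the Lipo-MK1775+NLG minus Free-MK1775+NLG919 difference and subtracts the Lipo-MK1775 minus Free-MK1775 difference. Limma called 3025 genes higher (19.6%) and 224 lower (1.45%), with a median over all genes of 1.12. Mitochondrial transcripts made up 64.1% and 56.0% of FPKM in the Lipo-MK1775 libraries, so without NLG919 the Lipo form and a high mitochondrial share cannot be told apart, and with NLG919 it is a Free library that has the high share. Median-of-ratios scaling, which brings that median to 0.06, left 23 genes higher and 24 lower. With the mitochondrial share as a covariate limma called 0 genes, and 1319 had an unadjusted p under 0.05.

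Mmp9 had 329 and 348 nuclear TPM in Lipo-MK1775+NLG, 130.1 and 112 in Free-MK1775+NLG919, 124 and 119 in Lipo-MK1775 and 183 and 182 in Free-MK1775 tumours. The form difference was thus 1.48 with NLG919 and -0.58 without it, and the second subtracted from the first gave 2.06 (limma adjusted p = 0.0290). Fosl1 had 51.4 and 57.1 in Lipo-MK1775+NLG, 20.9 and 21.8 in Free-MK1775+NLG919, 26.1 and 21.2 in Lipo-MK1775 and 47.0 and 71.5 in Free-MK1775 tumours, a difference between the settings of 2.57 (limma adjusted p = 0.0323). For Il33 the levels were 5.51 and 7.82 in Lipo-MK1775+NLG, 55.1 and 25.6 in Free-MK1775+NLG919, 30.8 and 101 in Lipo-MK1775 and 33.2 and 43.4 in Free-MK1775 tumours, and the difference was -2.90 (limma adjusted p = 0.0437). Mmp9 and Fosl1 were thus low in both Lipo-MK1775 and both Free-MK1775+NLG919 libraries, and Il33 was low in both Lipo-MK1775+NLG libraries.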

How the data were processed

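RNA of subcutaneous 4T1 tumours was measured by sequencing in 10 libraries, with an RNeasy mini plus kit and a NEBNext Ultra library kit, per the labels' protocols. FastQC, Trim Galore, HISAT2, StringTie and build GRCm39 are named in the submitters' processing notes, without versions. Per transcript, the deposited files hold FPKM, which the authors scaled to transcript length and library. No strand setting is given in the sources used here. Overlapping and antisense genes therefore cannot be told apart. Read counts were not used here, and depth is known only as a ratio between libraries.

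Of 161762 transcripts, 140711 carried a gene name and were summed to 52324 gene names. Values were then rescaled to a sum of 1000000 over transcripts outside the mitochondrial genome, which takes out the mitochondrial share but lets the share of other abundant RNA move all genes. Genes at 1 nuclear TPM or more in at least 2 libraries were tested (15469; 36855 were set aside). The values were taken as log2(value + 1) and fitted with limma 3.58.1 in R 4.3.3, with a mean per group, all 10 libraries and a variance trend. The test was two-sided, with Benjamini-Hochberg adjustment over the genes tested, and 0 columns of other samples were left out. An exact permutation test of 2 against 2 libraries cannot give a p under 0.333 and was not used. In simulated data for the comparison of Lipo-MK1775+NLG and Free-MK1775+NLG919, run on 15469 genes, 0% of genes changed by 1 log2 unit and 29% of those changed by 2 were called with the spread of all 5 pairs of replicates. With the spread taken without the Free-MK1775+NLG919 pair, 16% and 64% were called. Among unchanged genes, 2 and 7 were called in these settings. The simulated spread of a gene was the same in every library. The simulation therefore lacks the lower level of most genes in Free-MK1775+NLG919 replicate 2, and its shares may not hold for the real comparison.

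The libraries compared, the gene lists, the motifs and the tests were chosen with earlier results of these data known. Up to 12 genes a direction are named, those of smallest unadjusted p with a difference of at least 1 and no overlap, since fewer than 5 were called. To them come 3 separated members of smallest p from each list and a fixed list of pathway genes, while predicted genes and pseudogenes are counted only. This gave 148 genes, of which a part is printed here, by a shortening made after the values were seen, and other list members are given as examples. A few single genes are not reported here. Alternatives changed the scaling, the pseudocount, the filter, the transcript summary, the model and each library in turn. An alternative on deposited FPKM without the libraries of high mitochondrial share was added after seeing the data, as was the transcript summary with median-of-ratios scaling.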

Additional observations from a re-analysis of the deposited data

Results flagged for a closer look

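These results differ by limma's test between the form effect with NLG919 and the form effect without it (adjusted p under 0.05). Values are the log2 difference of Lipo-MK1775+NLG and Free-MK1775+NLG919 minus that of Lipo-MK1775 and Free-MK1775, and the median over all genes is 1.12. Both Lipo-MK1775 libraries and Free-MK1775+NLG919 replicate 2 have a high mitochondrial share, so these values and that share cannot be told apart. All values are by named transcripts only. With unnamed transcripts added, the form difference with NLG919 moved by over 1.5-fold for 33 of the 148 named genes. Of those listed below, they include Arl6ip5, Pcnt, Sec24a, Slfn4, Usp37, Arih2, Cap1, Pak1, Cd93, Eif4e and Cyb5r4. They also include Mast4, Trp53i11, Hnrnpa2b1, Mki67, Mdm2, Slc7a11 and Hspa1a.

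Among the genes of smallest p for the forms with NLG919, the value was 3.24 for Arl6ip5, 4.71 for Calr4, 4.77 for Pcnt, 6.98 for Sec24a, 2.06 for Mmp9, 4.07 for Slfn4, 6.22 for Usp37, 2.39 for Arih2, 2.62 for Cap1, 3.13 for Pak1, 2.95 for Nptn and 3.47 for Cd93. It was negative for Eif4e (-2.66), Cyb5r4 (-3.64), Mast4 (-3.70), Bend5 (-1.98), Trp53i11 (-3.33), Hnrnpa2b1 (-2.10), Tbx2 (-2.45) and H2ac10 (-2.88). For proteases and AP-1 genes it was 3.38 for Mmp10, 2.68 for Mmp13, 2.86 for Mmp8, 2.57 for Fosl1, 2.62 for Jun and 2.10 for Myc. Inflammatory genes had 2.24 for Ccl2, 2.73 for Cxcl1, 2.63 for Cxcr2, 1.78 for Ptgs2 and -2.90 for Il33.

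Cell cycle and damage genes had 1.97 for Wee1, 1.87 for Chek1, 2.38 for Ccnb1, 2.22 for Pkmyt1, 5.58 for Mki67, 2.84 for Kif20a, 2.22 for Nuf2, 1.76 for Cdt1, 2.46 for Rrm2, 1.92 for Mcm2, 2.76 for Blm, 4.04 for Mdm2 and 1.63 for Bbc3. Stress, iron and redox genes had 2.06 for Chac1, 2.14 for Asns, 1.45 for Psat1, 2.74 for Xbp1, 2.43 for Txnrd1, 1.68 for Nfe2l2, -1.69 for Slc7a11, 2.44 for Tfrc, 2.52 for Ncoa4, 2.68 for Slc25a37 and 1.85 for Adm. Chaperone and respiratory genes had 1.92 for Hspa9, 2.26 for Dnajb1, 2.46 for Hspa1a, 1.72 for Atp5b and 1.60 for Ndufv1.

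Genes of the aryl hydrocarbon receptor, interferon and nucleic acid sensing had 2.52 for Tiparp, 2.83 for Cyp1b1, 4.10 for Gbp7, 3.67 for H2-Q6, 2.30 for Tbk1 and 1.74 for Ikbke. Vessel, matrix and epithelial genes had 3.30 for Pecam1, 2.67 for Kdr, 3.13 for Cdh5, 3.34 for Tnc and 1.66 for Krt8. The nuclear RNA Neat1 had 4.46, and the ribosomal protein genes Rps2 and Rps18 had -1.43 and -1.38.

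Outside the gene comparison, mitochondrial transcripts made up 47.3% of summed FPKM in Free-MK1775+NLG919 replicate 2, against 4.79% and 3.70% in the control libraries. In the same library, single-exon transcripts without a gene name made up 9.78% of nuclear FPKM, against 2.97% and 2.35% in the control.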

How the results depend on the processing

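The count of genes called between Lipo-MK1775+NLG and Free-MK1775+NLG919 was 2. It was 4 with quantile normalization, 5 without a filter and 1 in each of 4 alternatives: unnamed transcripts added, those with median-of-ratios scaling, a replicate block, and only the 4 libraries in the fit. Deposited FPKM, median-of-ratios scaling, both pseudocounts, the stricter filter, no variance trend, the robust fit, the mitochondrial covariate and the 7 libraries of low mitochondrial share under either scaling gave 2 or 3. Leaving out a library gave 1 to 6030, with 6030 without Free-MK1775+NLG919 replicate 1, where the cause was not tested. A like count need not hold the same genes. With the mitochondrial covariate 3 genes were called higher and 0 lower, so Eif4e was not among them, and 1 was shared with the main fit. The Eif4e difference turned from -3.40 to 0.0383 with unnamed transcripts added, where the isoform of its locus carries no name. Of 148 named differences 8 changed sign under median-of-ratios scaling (Cdk1, Ahr, Gpx4, Acsl4, Fth1, Nfe2l2, Cdkn1a and Gzmb), 5 under quantile normalization, 7 with unnamed transcripts and 10 without Free-MK1775+NLG919 replicate 2, and 33 moved by over 1.5-fold with unnamed transcripts. Scaling by median of ratios and by quantiles brought the median of all genes from 0.42 to 0.005 and 0.03.

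The count for the form effect with against without NLG919 was 3249. It was 5801 with deposited FPKM, 47 with median-of-ratios scaling (23 higher, 24 lower), 41 with quantile normalization (21 higher, 20 lower), 26 without a filter, 6604 with unnamed transcripts, 1186 with those and median-of-ratios scaling (448 higher, 738 lower), 72 with the replicate block and 0 with the mitochondrial covariate (1319 at an unadjusted p under 0.05). It was 2441 to 3792 under the other settings that kept all libraries. Leaving out a library gave 0 to 8826. It was 17 and 15 without a control library, 0 and 1 without a Free-MK1775 library, 8826 and 3681 without a Free-MK1775+NLG919 library, 4 and 194 without a Lipo-MK1775 library and 1 and 8 without a Lipo-MK1775+NLG library, replicate 1 given before replicate 2. At 0 calls, 5909 genes had an unadjusted p under 0.05, and the cause was not tested. Without the libraries of high mitochondrial share, or with the 4 libraries only, this effect could not be fitted because no Lipo-MK1775 library remains. Replicate numbers did not pair the samples: deviations of same-numbered libraries correlated at -0.204 to 0.0654 over 10 pairs of groups. FPKM without read counts and 2 libraries a group limit the precision.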

Other observations

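The following genes were picked after their values were seen, from the 120 with at least 1 log2 unit between the nearest libraries of the groups under both transcript summaries. They carry no test as a group, and none was called by limma. Among the higher genes, Acp5, the tartrate-resistant acid phosphatase of osteoclasts and some macrophages, had 386 and 314 nuclear TPM in Lipo-MK1775+NLG tumours, against 119 and 52.7 in Free-MK1775+NLG919 tumours (log2 difference 2.12, and 1.54 against replicate 1 alone). The collagen-degrading cathepsin Ctsk had 192 and 155 nuclear TPM in Lipo-MK1775+NLG tumours, against 28.4 and 0 in Free-MK1775+NLG919 tumours, with a difference of 5.00 by named transcripts and 3.62 with unnamed transcripts. Ocstamp and Dcstamp, genes of cell fusion in osteoclasts and giant cells, had 12.9 and 11.8 nuclear TPM in Lipo-MK1775+NLG tumours, against 4.94 and 1.63 in Free-MK1775+NLG919 tumours, and 5.49 and 5.01 nuclear TPM in Lipo-MK1775+NLG tumours, against 1.66 and 0.546 in Free-MK1775+NLG919 tumours. Oscar, an osteoclast receptor gene, had 3.36 and 3.46 nuclear TPM in Lipo-MK1775+NLG tumours, against 0.391 and 0.594 in Free-MK1775+NLG919 tumours, and Siglec15 had 3.37 and 2.05 nuclear TPM in Lipo-MK1775+NLG tumours, against 0.122 and 0 in Free-MK1775+NLG919 tumours. That both Free-MK1775+NLG919 libraries lay below both Lipo-MK1775+NLG libraries in each of these genes follows from how they were picked.

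Other higher genes included C3, the central complement component, with 148 and 151 nuclear TPM in Lipo-MK1775+NLG tumours, against 56.5 and 24.6 in Free-MK1775+NLG919 tumours, the annexin Anxa8 with 54.1 and 46.1 nuclear TPM in Lipo-MK1775+NLG tumours, against 5.06 and 0.888 in Free-MK1775+NLG919 tumours and the FGF binding protein gene Fgfbp1 with 26.3 and 20.1 nuclear TPM in Lipo-MK1775+NLG tumours, against 2.83 and 1.47 in Free-MK1775+NLG919 tumours. Lower genes included Igfbp7, a secreted binding protein of vessels and stroma, with 300.5 and 243 nuclear TPM in Lipo-MK1775+NLG tumours, against 644 and 823 in Free-MK1775+NLG919 tumours (difference -1.43). The filamin regulator Rflnb had 19.9 and 18.1 nuclear TPM in Lipo-MK1775+NLG tumours, against 102 and 69.5 in Free-MK1775+NLG919 tumours. Sulf2, which trims heparan sulfate, had 9.08 and 9.13 nuclear TPM in Lipo-MK1775+NLG tumours, against 41.7 and 24.1 in Free-MK1775+NLG919 tumours. By the same choice, these lower genes were higher in both Free-MK1775+NLG919 libraries than in both Lipo-MK1775+NLG libraries.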
